A study of Danio rerio with 2 samples.

Results

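The genes described here are the Wnt ligands, their frizzled receptors, their secreted antagonists, and the cytoplasmic and nuclear proteins that carry the signal. They were taken from the array annotation by symbol, as every gene whose name begins with wnt and a digit, fzd, sfrp, frzb, dkk, axin, lef1, tcf7, dvl, ctnnb, lrp5 or lrp6. The rule found 36 of the 8793 genes named by a single-gene probe set, read by 43 probe sets, and 22 of the 36 reached the floor described below on at least 1 array. None of the matched symbols was lrp5 or lrp6. Of the matches, ctnnbl1 encodes a nuclear protein associated with the spliceosome that resembles beta-catenin in name, and it is kept apart below.

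Total RNA of whole zebrafish embryos was hybridized to Affymetrix zebrafish arrays at 24 hours after fertilization. One group had been injected with a morpholino against DrC1q-like, a gene named for its likeness to complement C1q, and the other with a control morpholino differing from it at 5 bases. Morpholinos are antisense oligomers that keep a transcript from being translated or spliced, and each embryo of either group had been given about 5 ng. Injected embryos are called C1q-like morphants and control morphants below. No strain, mutation or transgene is given for the fish, the number of embryos pooled is not stated in the labels, and a morpholino lowers a gene product without altering the gene.

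With a single array for each group, differences could not be checked against replicates or tested. "Lower" and "higher" describe the signal in C1q-like morphants against that in control morphants, on these arrays. Hybridization and scanning took place on a separate day for each array, and an effect of the day cannot be told apart from one of the morpholino. The targeted gene itself was not read here, so it gives no check of the labels. Skeletal muscle, blood, notochord and epidermis markers were read above the floor on both arrays in 10 of 11, 6 of 6, 4 of 5 and 8 of 8 cases. In RNA of whole embryos, fewer cells of a type and less RNA per cell cannot be told apart.

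Wnt proteins are secreted lipid-modified ligands that bind frizzled receptors on neighbouring cells. In the canonical branch, receptor engagement recruits Dishevelled, disables the Axin complex that destroys beta-catenin, and lets beta-catenin enter the nucleus to act with Tcf and Lef factors on target genes. Other branches act on cell polarity and movement. In the zebrafish embryo Wnt signals help to set the border of midbrain and hindbrain, restrain forebrain fate, drive convergence and extension, and maintain the tailbud.

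Values are MAS5 signals, which are summaries of probe brightness on a linear scale in arbitrary units. Low MAS5 signals are mostly background, so any signal under 33.3, the median of both arrays, was set to that floor when ratios were formed. A gene is called measured where at least 1 array reached the floor. The log2 ratio is that of C1q-like morphants over control morphants, so a negative value means a lower signal in C1q-like morphants. Signals of different genes are read by different probes and are not compared with each other.

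Of the 22 measured Wnt genes 18 had a ratio below 1 and 4 above 1, against 48.8% and 50.9% of all 5958 measured genes. The count below 1 was not among the planned results. The median log2 ratio was -0.28 for the Wnt genes and 0.01 for all measured genes. The differences were small. Of the Wnt genes 1 was at least 2-fold lower, against a background of 4.1% of all measured genes, and 0 were at least 2-fold higher, against 1.68%. At 1.5-fold, a size chosen after the values were seen, 5 were lower and 0 higher, against 14.5% and 10.2% of all measured genes. Without ctnnbl1, 17 of 21 genes had a ratio below 1 and the median log2 ratio was -0.31. Of the 22, 4 passed the floor on the control array alone and 1 on the C1q-like array alone, which fixes the direction of their ratios. Among the 17 Wnt genes with both signals at or above the floor, 14 had a ratio below 1, against 50.5% of all such genes. Over all 36, with no floor, 24 had a lower deposited signal in C1q-like morphants, against 46.7% of all genes on the array.

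**Figure D1:**
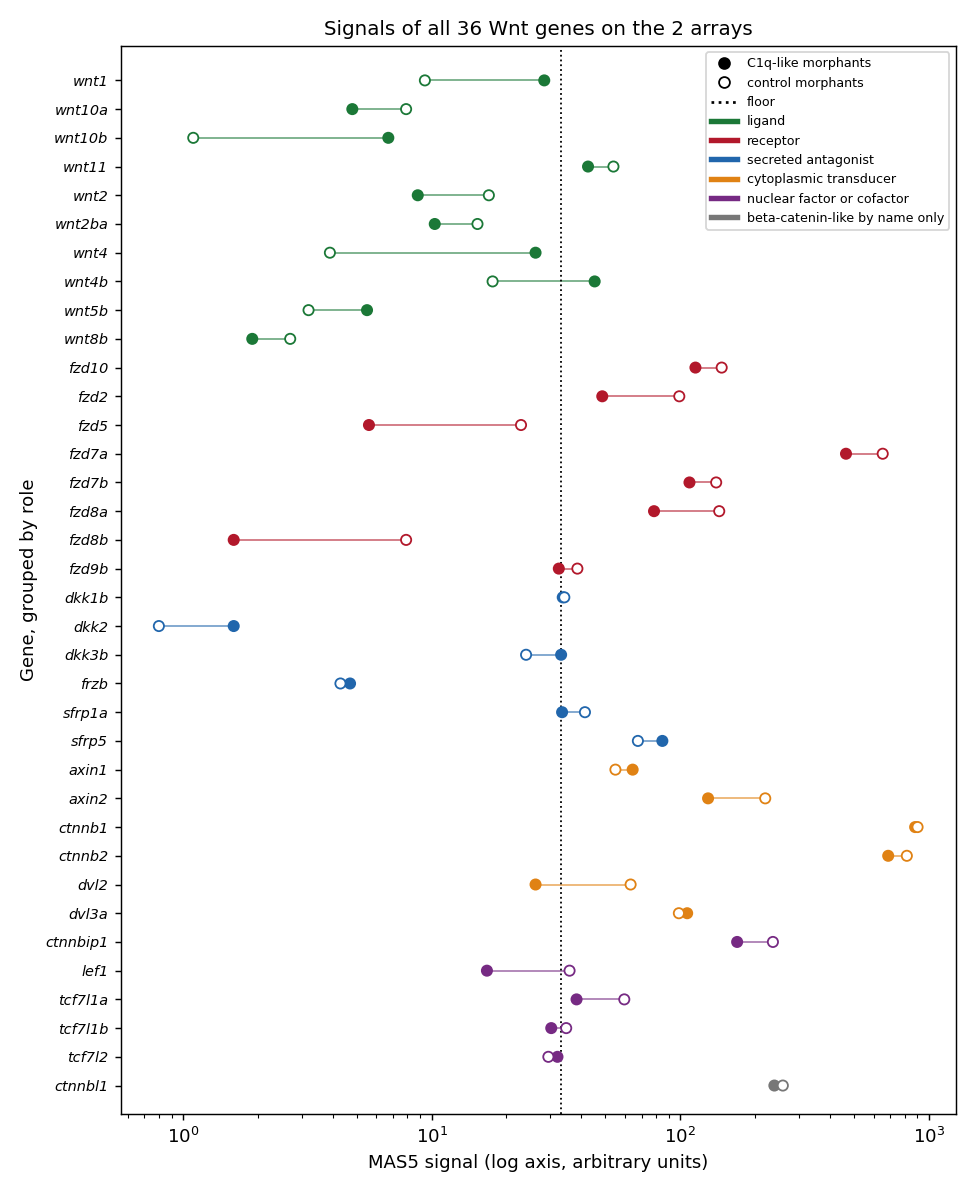
MAS5 signals of all 36 Wnt genes on a log axis, by role, with filled points for C1q-like morphants, open points for control morphants and a dotted line at the floor of 33.3. Every frizzled receptor has its filled point to the left of its open point, and 8 of the 10 ligands lie left of the floor on both arrays.

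The frizzled receptors shared a direction. All 6 measured receptors had ratios below 1, against 48.8% of all measured genes. Of the 6, 5 had both signals at or above the floor, and 50.5% of all such genes had a ratio below 1. The other, fzd9b, passed the floor on the control array alone, which fixes its direction. Log2 ratios of the 6 lay between -1.03 and -0.21, with a median of -0.42. The count and median of the receptors were not among the planned results. The gene fzd2, a receptor linked to non-canonical Wnt signalling, gave 48.6 in C1q-like morphants and 99.2 in control morphants. That is 2.04-fold lower, a log2 ratio of -1.03, and 3.68% of all measured genes had a lower ratio. It was the 1 Wnt gene past 2-fold, and it was read by a single probe set. It passed 2-fold narrowly, with log2 ratios of -0.96 for quantile-normalized arrays and -0.95 for lowess-centred ones. With a floor at the 75th percentile of signals, 93.1, its signal in C1q-like morphants was raised to the floor. Its log2 ratio of -0.09 there is thus an upper limit.

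The gene fzd8a, a frizzled receptor of the anterior neural plate and forebrain, read 78.5 in C1q-like morphants and 143.6 in control morphants, 1.83-fold lower. A dimmer probe set of fzd8a, whose probes may be shared with other transcripts (_s_at), read 20.7 in C1q-like morphants and 50.1 in control morphants. The first of these signals lay under the floor, so the log2 ratio of -0.59 is an upper limit. Both probe sets of fzd8a pointed the same way, but the dimmer one passed the floor on the control array alone, which fixes its direction.

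The paralogues fzd7a and fzd7b encode receptors for Wnt ligands that direct gastrulation movements. The gene fzd7a read 464.6 in C1q-like morphants and 652.8 in control morphants, a log2 ratio of -0.49. For fzd7b the main probe set read 109.0 in C1q-like morphants and 139.6 in control morphants, a log2 ratio of -0.36. Its dimmer probe set read 43.0 in C1q-like morphants and 83.1 in control morphants, a log2 ratio of -0.95. The paralogues thus differed by less (0.13 on the log2 scale) than the 2 probe sets of fzd7b did (0.59).

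Of the remaining receptors, fzd10, a gene of the dorsal neural tube, read 115.2 in C1q-like morphants and 146.9 in control morphants (-0.35 on the log2 scale). Its second probe set, of the shared kind (_s_at), read 53.9 in C1q-like morphants and 57.4 in control morphants (-0.09). The gene fzd9b read 32.5 in C1q-like morphants and 38.6 in control morphants, so its signals straddled the floor and its log2 ratio of -0.21 is an upper limit. Its other probe set was under the floor on both arrays, at 24.6 in C1q-like morphants and 26.5 in control morphants. The signals of fzd5, a receptor gene of the eye field, were 5.6 in C1q-like morphants and 22.9 in control morphants, and those of fzd8b were 1.6 in C1q-like morphants and 7.9 in control morphants. Both genes lay under the floor on both arrays, where a MAS5 signal is mostly background, and no ratio was taken.

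**Figure D2:**
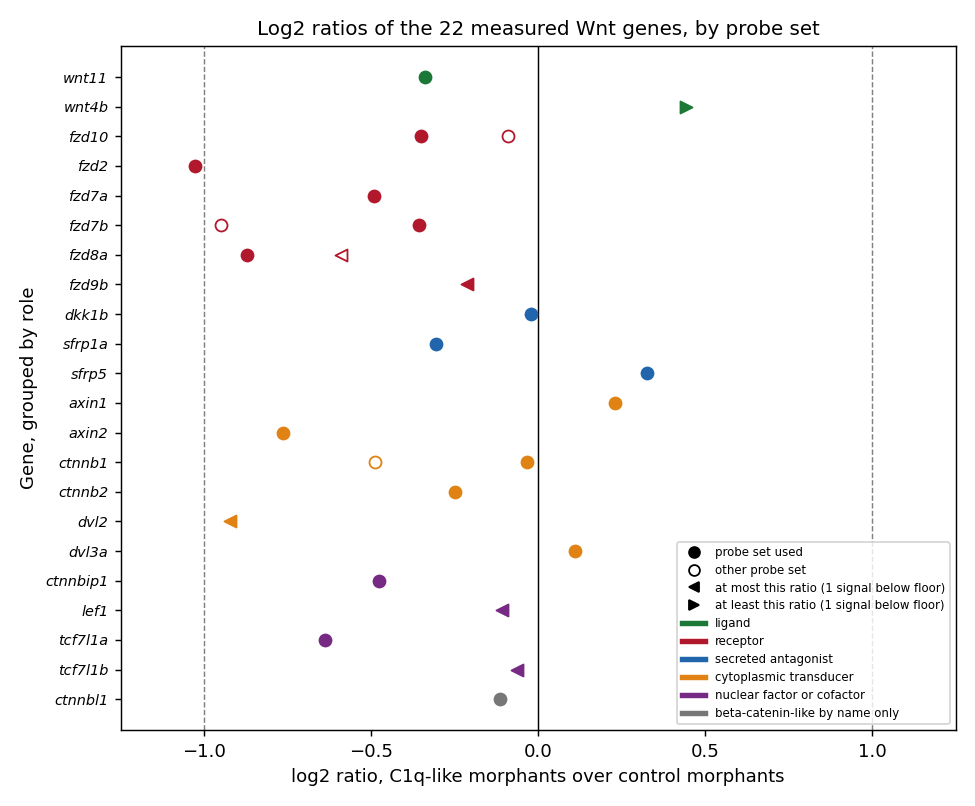
Log2 ratios (C1q-like morphants over control morphants) of the 22 measured Wnt genes, by role, with filled symbols for the probe set used, open symbols for further measured probe sets, triangles where 1 signal lay under the floor, and dashed lines at 2-fold. The receptors lie left of 0 by all of their measured probe sets, and the 4 genes right of 0 are wnt4b, sfrp5, axin1 and dvl3a.

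Ligand genes were mostly too dim to compare. Of 10 ligands on the array 2 were measured, and they lay on opposite sides of 1. The gene wnt11, whose protein directs convergence and extension, read 42.6 in C1q-like morphants and 53.9 in control morphants, a log2 ratio of -0.34. The gene wnt4b, expressed in the floor plate, read 45.3 in C1q-like morphants and 17.6 in control morphants. The control signal lay under the floor, so wnt4b was at least 1.36-fold higher. It passed the floor on the C1q-like array alone, which fixes its direction.

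The other 8 ligands, namely wnt1, wnt2, wnt2ba, wnt4, wnt5b, wnt8b, wnt10a and wnt10b, had signals between 1.9 and 28.4 in C1q-like morphants and between 1.1 and 17.0 in control morphants. The signal was higher in C1q-like morphants for 4 of them and lower for 4, all under the floor. The midbrain-hindbrain boundary ligand wnt1 read 28.4 in C1q-like morphants and 9.4 in control morphants, and wnt4 read 26.2 in C1q-like morphants and 3.9 in control morphants. A ratio from such signals depends on the background, so none is given. A difference between the groups was not detectable for these ligands at such signals.

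Secreted antagonists other than sfrp5 were near or under the floor as well, and those measured differed in direction. The gene sfrp5 encodes a secreted frizzled-related protein, which binds Wnt ligands outside the cell. It read 84.8 in C1q-like morphants and 67.6 in control morphants, a log2 ratio of 0.33. The related gene sfrp1a read 33.5 in C1q-like morphants and 41.4 in control morphants, a log2 ratio of -0.31. The gene dkk1b, whose protein blocks the Lrp co-receptors and permits head formation, read 33.7 in C1q-like morphants and 34.2 in control morphants, almost the same. The genes dkk2, dkk3b and frzb were under the floor on both arrays, with signals of 1.6, 33.2 and 4.7 in C1q-like morphants and 0.8, 24.0 and 4.3 in control morphants.

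In the cytoplasm, the genes of beta-catenin itself had ratios near 1 by their brightest probe sets. The gene ctnnb1 read 881.4 in C1q-like morphants and 901.5 in control morphants, a log2 ratio of -0.03. Its second probe set read 333.3 in C1q-like morphants and 467.8 in control morphants, a log2 ratio of -0.49, so the 2 probe sets of ctnnb1 had the same sign and unlike sizes. The paralogue ctnnb2, which in zebrafish is needed maternally for the dorsal organizer, read 686.8 in C1q-like morphants and 816.2 in control morphants, a log2 ratio of -0.25.

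The Axin scaffolds of the destruction complex had opposite signs. The gene axin2, itself switched on by canonical Wnt signalling as a feedback inhibitor, read 129.5 in C1q-like morphants and 219.9 in control morphants. That is 1.70-fold lower, a log2 ratio of -0.76, read by a probe set whose probes are common to transcripts of 1 gene (_a_at). The gene axin1, which is expressed broadly, read 64.4 in C1q-like morphants and 54.9 in control morphants, a log2 ratio of 0.23. A second axin1 probe set read 18.9 in C1q-like morphants and 20.9 in control morphants, both under the floor. The difference between axin2 and axin1 was -0.99 on the log2 scale.

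The Dishevelled genes, whose proteins relay the signal from frizzled, also had opposite signs. That of dvl2 was fixed, because dvl2 passed the floor on the control array alone. The gene dvl2 read 26.2 in C1q-like morphants and 63.2 in control morphants. The first signal lay under the floor, so dvl2 was at least 1.90-fold lower, and 5.22% of all measured genes had a lower ratio. The gene dvl3a read 106.7 in C1q-like morphants and 98.8 in control morphants, a log2 ratio of 0.11, which was -0.01 with each array centred on its median.

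Of 4 measured nuclear genes 2, tcf7l1a and ctnnbip1, had both signals at or above the floor, and both had ratios below 1. The others, lef1 and tcf7l1b, passed the floor on the control array alone, which fixes the direction of their ratios. The gene tcf7l1a, mutated in the zebrafish headless mutant and encoding a repressor of Wnt targets needed for the forebrain, read 38.3 in C1q-like morphants and 59.6 in control morphants. That is 1.56-fold lower, a log2 ratio of -0.64. Its paralogue tcf7l1b read 30.3 in C1q-like morphants and 34.8 in control morphants, at the floor. The gene ctnnbip1 encodes an inhibitor, also called ICAT, that keeps beta-catenin from Tcf factors. It read 169.5 in C1q-like morphants and 236.1 in control morphants, a log2 ratio of -0.48.

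The gene lef1, encoding an activating partner of beta-catenin and itself a Wnt target, read 16.7 in C1q-like morphants and 35.9 in control morphants. With the floor its log2 ratio was -0.11, and with the deposited signals -1.10, so its size depended on the floor. The gene tcf7l2 was under the floor on both arrays, at 32.1 in C1q-like morphants and 29.5 in control morphants. The spliceosome-associated ctnnbl1 read 239.3 in C1q-like morphants and 258.8 in control morphants, a log2 ratio of -0.11, which was 0.01 after quantile normalization.

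Probe sets of the same gene give a scale for the error of 1 reading, though not for the variation between embryos. Over 789 genes with at least 2 measured probe sets, the log2 ratios of the 2 brightest differed by a median of 0.36, and 1 in 10 pairs differed by more than 1.04. The SD of a single probe set's log2 ratio from such pairs was 0.44. The log2 ratios of axin2, dvl2, fzd2, fzd7a, fzd8a, tcf7l1a, ctnnbip1 and wnt4b were at least as large as that SD. The share of all measured genes with ratios as large was not counted, so these genes are not shown to stand out. The SD of the log2 ratios of all measured genes was 0.53, and their 25th and 75th percentiles were -0.35 and 0.32. Of the 8, dvl2 and wnt4b passed the floor on 1 array alone, which fixes the direction of their ratios. The log2 ratios of the other 14 measured Wnt genes were smaller with the floor. Among these, the ratios of lef1, fzd9b and tcf7l1b are upper limits, and that of lef1 was -1.10 with the deposited signals. The log2 ratios of axin2 and axin1 were as far apart as those of 2 probe sets of 1 gene were in 91 of the 789 pairs (11.5%), and those of dvl2 and dvl3a as in 83 (10.5%). For tcf7l1a and tcf7l1b the share was 32.3%, for ctnnb2 and ctnnb1 67.9%, and for fzd7a and fzd7b 81.6%. The 4 Wnt genes with 2 measured probe sets, namely fzd7b, fzd8a, fzd10 and ctnnb1, had ratios below 1 by both. The dimmer probe set of fzd8a passed the floor on the control array alone, which fixes its direction. The share of all 789 genes with ratios below 1 by both probe sets was not counted, so these 4 are not shown to differ from other genes.

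The ratio changed with signal between these arrays, so the Wnt genes were also set beside genes of like signal. In order from the dimmest to the brightest quartile of measured genes, 4 of 4, 1 of 3, 5 of 6 and 4 of 4 Wnt genes with both signals at or above the floor had a ratio below 1. Of all such genes in those quartiles the shares below 1 were 45.5%, 53.8%, 56.0% and 43.4%. The dimmest quartile held a further 5 Wnt genes with 1 signal under the floor, namely dvl2, fzd9b, lef1, tcf7l1b and wnt4b. The 3 Wnt genes of the second quartile were fzd2, below 1, and axin1 and sfrp5, above 1, whereas the brightest quartile held fzd7a, ctnnb1, ctnnb2 and ctnnbl1.

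**Figure D3:**
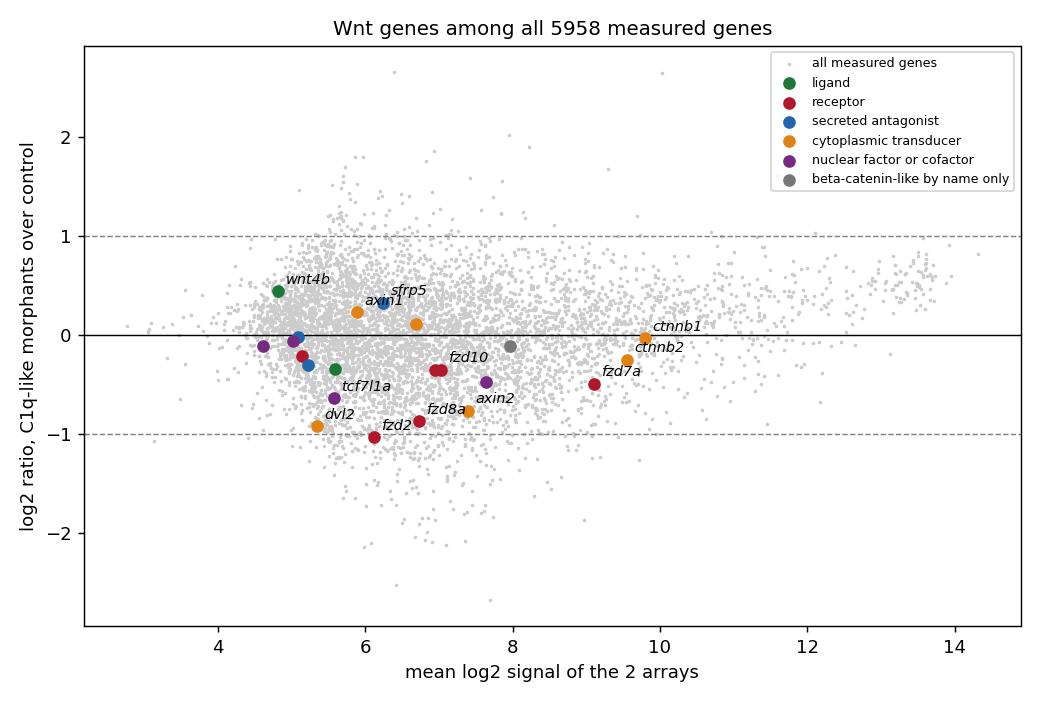
Log2 ratio (C1q-like morphants over control morphants) against the mean log2 signal of both arrays for all 5958 measured genes in grey and the Wnt genes in colour by role, with dashed lines at 2-fold. The Wnt genes lie within the cloud of all genes, mostly under 0, with fzd2 at the lower dashed line.

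Other genes of the pathway, from a list of 89 names outside the rule, were divided evenly about a ratio of 1. Of 43 on the array 29 were measured, with 14 ratios above 1, 14 below 1 and a ratio of exactly 1 for tab1. Of all measured genes 50.9% were above 1 and 48.8% below 1. Of the 29, 27 had both signals at or above the floor. The others passed it on the C1q-like array alone, which fixes their ratios above 1. The median log2 ratio of the 29 was 0.00. That median was -0.12 with each array centred on its median, which lowered all genes, and 0.05 after quantile normalization. Lowest was tle2a, encoding a Groucho corepressor that binds Tcf factors, which read 60.6 in C1q-like morphants and 183.9 in control morphants, 3.03-fold lower.

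The 2 highest encode secreted inhibitors. The gene wif1, whose protein binds Wnt ligands, read 93.1 in C1q-like morphants and 58.2 in control morphants, a log2 ratio of 0.68. The gene notum1b, whose family of enzymes removes the lipid from Wnt ligands, read 51.7 in C1q-like morphants and 18.7 in control morphants. The control signal lay under the floor, so notum1b was at least 1.55-fold higher. It passed the floor on the C1q-like array alone, which fixes its direction.

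Genes reported to respond to Wnt signals in some vertebrate tissue went both ways. Of 40 on the array outside the rule 24 were measured. Of these 14 lay above 1 and 10 below 1, against 50.9% and 48.8% of all measured genes. Their median log2 ratio was 0.08, which was -0.01 with median centring. Of the 24, 20 had both signals at or above the floor. The others passed it on 1 array alone, which fixes the direction of their ratios. The ventral repressor gene vox read 232.3 in C1q-like morphants and 63.9 in control morphants, a log2 ratio of 1.86, and id2a, encoding an inhibitor of bHLH factors, had a log2 ratio of 0.51. At the other end en2b, an engrailed gene of the midbrain-hindbrain border, read 61.5 in C1q-like morphants and 121.6 in control morphants, a log2 ratio of -0.98. The log2 ratio of jun, an AP-1 factor gene, was -0.74. The Wnt feedback gene sp5a was under the floor, at 8.1 in C1q-like morphants and 25.2 in control morphants, as was sp5l at 6.9 in C1q-like morphants and 14.8 in control morphants. Both sp5 genes were picked after their values were seen, and no ratio was taken for them.

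Several Wnt receptors and Tcf genes are expressed in the developing nervous system, and neural markers were lower on the same array as well. All 13 measured neural progenitor markers on the array had ratios below 1, against 48.8% of all measured genes. Their median log2 ratio was -0.84, and 4 were at least 2-fold lower, against 4.1% of all measured genes. Of the 13, 11 had both signals at or above the floor. The others, notch1a and pax6b, passed it on the control array alone, which fixes the direction of their ratios. The summed signal of the 13 was 1945.9 in C1q-like morphants and 3759.6 in control morphants. Of 11 measured neuron markers 9 had ratios below 1 and 2 above 1, against 48.8% and 50.9% of all measured genes. Their median log2 ratio was -0.44. Of the 9, elavl4 passed the floor on the control array alone, which fixes its direction. The summed signal of the 14 neuron markers on the array was 888.4 in C1q-like morphants and 1581.6 in control morphants. None of these markers was listed at 0, and gad2, nrxn1a and syt1a were under the floor on both arrays. Log2 ratios of the progenitor markers ranged between -1.62 and -0.36. Among them sox2 read 100.7 in C1q-like morphants and 198.1 in control morphants, a log2 ratio of -0.98. The marker lists were chosen with earlier results of these data known, so these counts are not independent support. The part of neural tissue in the Wnt values was not tested.

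Markers of other tissues gave other values. The 11 skeletal muscle markers had a median log2 ratio of 0.13, the 6 red blood cell markers 0.23, the 5 notochord markers 0.16 and the 8 epidermis markers 0.47. The red blood cell markers ranged between -1.01 and 1.16. Summed signals were higher in C1q-like morphants for muscle, blood and epidermis. For notochord the sum was lower, at 1110.5 in C1q-like morphants and 1262.8 in control morphants. With lowess centring the muscle median became -0.20 and that of blood 0.00, and with quantile normalization they were -0.14 and -0.01, so the signs of the muscle and blood medians depended on the scaling. Those of the notochord and epidermis medians did not change under median centring, lowess centring or quantile normalization. The 13 neural progenitor markers were all below 1 under each of these scalings. The 6 measured neural crest markers had a median of -0.22, with 5 of 6 ratios below 1, against 48.8% of all measured genes. The neural crest median was -0.07 with quantile normalization and -0.10 with lowess centring. In each of these 4 of 6 ratios were below 1, against 47.1% and 48.8% of all measured genes. The median of the Wnt genes, -0.28, lay between those of the neural progenitor markers and of the notochord and epidermis markers.

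**Figure D4:**
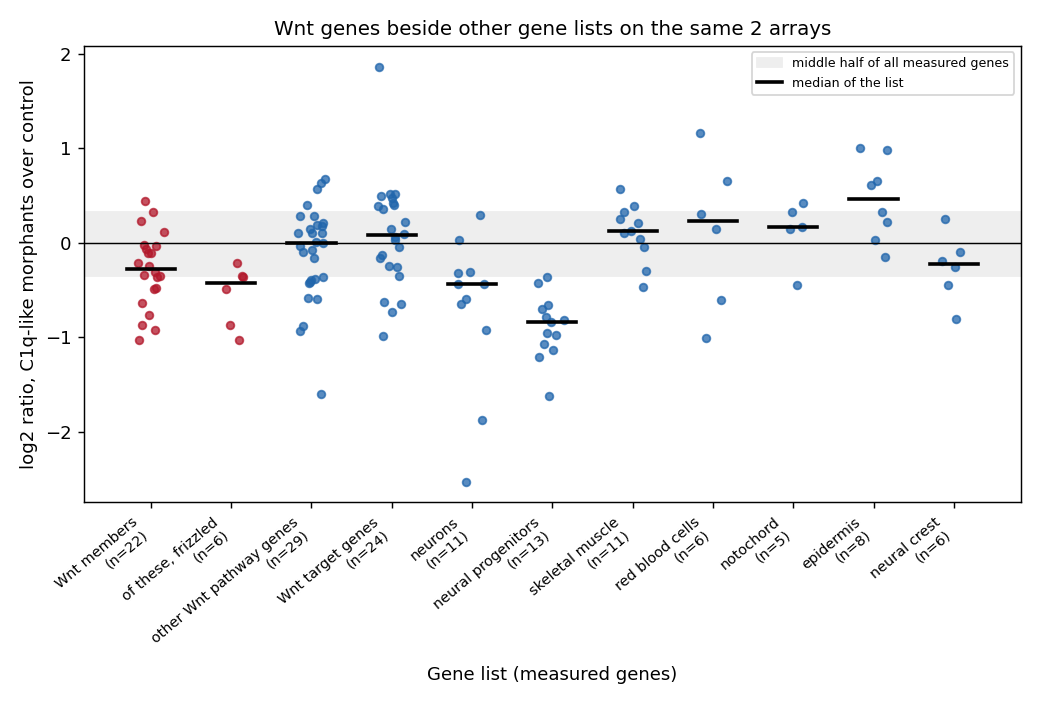
Log2 ratios (C1q-like morphants over control morphants) of the measured genes of each list, with 1 point per gene, a bar at the list's median and a grey band between the 25th and 75th percentiles of all measured genes (-0.35 to 0.32). The frizzled genes, with a median of -0.42, lie between the neural progenitor markers at -0.84 and the other pathway genes at 0.00.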

How the data were processed

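The deposited table held linear signal intensities, 1 for each probe set on each array. Per the submitters' processing notes they come from MAS5, with no version or scaling target stated. Both arrays had been scaled by the authors to nearly the same mean (98.8 in C1q-like morphants and 99.4 in control morphants, leaving out 2% of signals at each end), and the number of arrays limits the precision. Of 42 settings in the deposited experiment files 2 differed, the days of hybridization and scanning.

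Genes were named from the platform annotation, with symbols updated by Entrez number through the RefSeq table of GRCz12tu. Among the 15502 probe sets, 10795 had 1 gene symbol (10711 matched RefSeq), 135 had several and 4572 had none. The 2 probe sets that name a Wnt gene together with others were left out. Each gene was read through its probe set of highest mean log2 signal, and signals were raised to the floor of 33.3. With 1 array a group no test was run, and genes were counted by size. Every measured Wnt gene is named, and of each other pathway list the 2 highest and 2 lowest genes, except 1 that is not reported here. Members and lists were chosen with earlier results of these data known. The alternatives were other floors, scalings and probe set rules. The steps were tested on simulated data. Scripts used pandas 2.3.3, numpy 2.4.6, statsmodels 0.14.6, scipy 1.17.1 and matplotlib 3.10.9 under Python 3.11.15.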

Additional observations from a re-analysis of the deposited data

How the results depend on the processing

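No paired analysis was possible because each group was 1 array, and no array could be left out. Of the 22 measured Wnt genes 20 kept the sign of their log2 ratio in all of the 9 alternatives that measured them. The exceptions were dvl3a with median centring and ctnnbl1 with quantile normalization. A change of floor can shrink a ratio towards 1 but cannot reverse it, so those alternatives could not have changed a sign. The probe set rules left the reading of most Wnt genes as it was. For most genes only the scalings could thus reverse the sign. Below 1 were 21 of 29 Wnt genes with the floor at the 25th percentile (46.6% of all genes), 14 of 17 where both arrays had to reach the floor (50.5%), and 10 of 11 with the floor at the 75th percentile (50.9%). In the other alternatives 17 to 19 of 21 or 22 were below 1, against 47.1% to 57.9% of all genes. The highest of these, 19 and 57.9%, came with median centring. The median of the Wnt genes ranged between -0.37 and -0.22, and every measured frizzled gene was below 1 in each alternative. Passing on the control array alone fixed the direction of fzd5, wnt2 and wnt2ba with the floor at the 25th percentile. With the main floor it fixed that of fzd9b, dvl2, lef1 and tcf7l1b, and with the floor at the 75th percentile that of fzd2 and fzd8a. Passing on the C1q-like array alone fixed the direction of wnt1 and wnt4 with the floor at the 25th percentile, and of wnt4b with the main floor. All alternatives used the same arrays, so they are not separate readings. The frizzled median was -0.54 with median centring, which moved the median of all genes by -0.11, and -0.57 as a mean over probe sets. Size counts followed the floor. At least 2-fold lower were 3 of 29 Wnt genes with the floor at the 25th percentile (5.73% of all genes), 3 of 22 with none (6.09%), and 0 with the floor at the 75th percentile, quantile normalization or lowess centring. The log2 ratio of fzd2 was -0.09 with the higher floor, an upper limit because its signal in C1q-like morphants was raised to that floor. Past 2-fold higher were 3 of 29 with the lower floor (6.95% of all genes) and 1 of 22 with none (5.98%), and the counts past 1.5-fold higher were the same. Among the 3, wnt1 and wnt4 passed the lower floor on the C1q-like array alone. With no floor, the genes were still those measured with the main floor. The 1 higher there, wnt4b, had passed that floor on the C1q-like array alone. Of the 3 lower there, dvl2 and lef1 had passed it on the control array alone. At least 1.5-fold lower were 2 of 11 with the higher floor. No share of all genes was taken for the 1.5-fold counts under these other floors. Of all genes past 2-fold, 70.9% were lower, against 45.2% with the lower floor, 50.5% with none, 84.8% with median centring, 57.6% after quantile normalization and 60.4% after lowess centring. Fewer genes were measured with a higher floor, and signals under it were raised to it. Causes of the changes in these counts were not tested.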
